A study of Mus musculus with 4 samples.

Results

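The S100 genes encode small calcium-binding proteins, and 8 of them were followed here in the spleen: S100a1, S100a4, S100a6, S100a8, S100a9, S100a10, S100a11 and S100a13. They were chosen by symbol, through the Ensembl identifier of each row of the deposited count table and the GRCm38 annotation, and all 8 were found among 25509 gene rows. Each of the 8 also passed the filter on low counts, which kept 13532 genes. RNA came from splenocytes of mice that were 8 weeks of age, had a shaved back and received UVB (100 mJ/cm2) for 1 or 3 weeks, and the labels do not tell which. There were 2 libraries of wild-type (WT) mice and 2 of Trim21-/- mice, labelled Trim21 KO and called knockout here, and all 4 titles carry UV. Trim21 encodes a ubiquitin ligase and intracellular antibody receptor. Strain, the way the allele was made and whether each library is a separate animal are not given in the labels. No unexposed sample was analysed here, and both genotypes had received UVB.

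S100 proteins carry a pair of EF-hand calcium-binding loops and act mostly as dimers, which open on calcium binding and dock onto target proteins. Some stay in the cell and regulate the cytoskeleton, membranes or annexins, while others are released and act on receptors of neighbouring cells. S100A8 and S100A9 form calprotectin, a major cytosolic protein of neutrophils that withholds zinc and manganese from microbes and signals through Toll-like receptor 4. The spleen holds neutrophils and monocytes in the red pulp and is also a site of blood cell formation in the mouse.

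Library totals ran from 36173694 to 41924885 counts. Trim21 itself was counted 1237 and 1912 times in wild type and 345 and 882 times in the knockout libraries, and since the deleted exons are not named, these counts do not check the genotype. Library 1 of each genotype held Y-linked transcripts (109 and 108 CPM summed over 4 genes) and library 2 held Xist (932 and 288 CPM), so the members of a genotype's pair differed in sex pattern. They also differed by transcript length. Among 287 tested protein-coding genes whose longest transcript had at most 783 bases, the length of the longest of the S100 transcripts, 86.8% were higher in library 1 than in library 2 of the wild type and 88.9% in the knockout, against 49.6% and 47.6% of 12672 genes with longer transcripts. The median log2 fold change of knockout over wild type was 0.99 for these short genes and -0.070 for the longer ones. Length classes were set after the values had been seen, and the part of transcript length in the results below was not tested.

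Levels are given as CPM, which are counts divided by a library size scaled by TMM, with the SD of 2 libraries, and genotypes were compared with edgeR's quasi-likelihood test across all genes. A gene is said to rise or fall where its Benjamini-Hochberg adjusted p was under 0.05. In the knockout S100a8, S100a9 and S100a1 rose, by 30.9-fold, 28.3-fold and 5.84-fold, and 0 of the 8 fell (0 also at an unadjusted p under 0.05, and 0 by DESeq2). The share of all tested genes that passed was 5.9% as higher, 0.392% as lower and 6.29% in either direction. All 8 log2 fold changes were above 0, with a median of 1.57, where the median of all tested genes was -0.056. Both knockout libraries lay above both wild-type libraries for 5 of the 8, which besides those named were S100a6 and S100a11, and for 30.3% of all tested genes. Both lay below for 0 of the 8 and for 30.1% of all tested genes. The count that rose was 2 without knockout library 1, where S100a1 was lost and 4.23% of all tested genes passed as higher. It was 7 without wild-type library 1 (16.4% of all tested genes) and 7 with the library number as a replicate block (22.4%), and S100a10 was the 1 that did not pass in either. DESeq2 called 5 (11.2%).

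**Figure D1:**
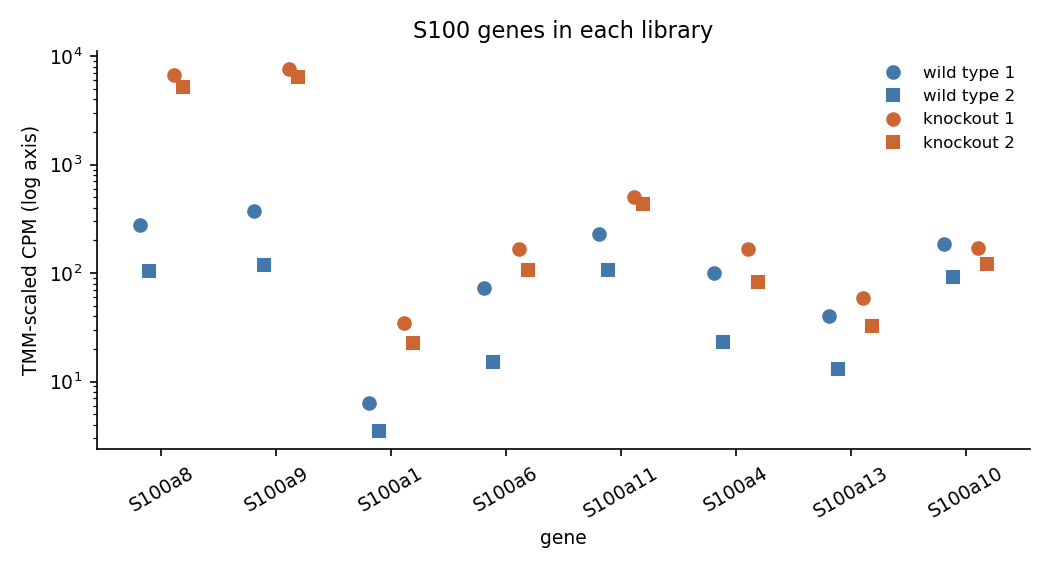
TMM-scaled CPM of each S100 gene on a log axis, with 1 point per library (blue, wild type; orange, knockout; circles, library 1; squares, library 2). The knockout points of S100a8 and S100a9 lie between 5166 and 7628 CPM, and those of wild type between 105 and 376 CPM, while the points of S100a10 overlap.

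S100a8 and S100a9, the subunits of calprotectin, lie 26743 bases apart by their start sites on chromosome 3. S100a8 (ENSMUSG00000056054) occupies 90668978 to 90670035 on the plus strand and S100a9 (ENSMUSG00000056071) 90692632 to 90695721 on the minus strand of GRCm38. Their promoter windows, from 250 bases before to 50 after the RefSeq start on GRCm38.p6, are shown because this pair moved together more closely than any other pair of the 8. Capitals mark TATAAA, the core of the TATA box that positions the transcription machinery.
S100a8 promoter, chr3:90668821-90669120, plus strand: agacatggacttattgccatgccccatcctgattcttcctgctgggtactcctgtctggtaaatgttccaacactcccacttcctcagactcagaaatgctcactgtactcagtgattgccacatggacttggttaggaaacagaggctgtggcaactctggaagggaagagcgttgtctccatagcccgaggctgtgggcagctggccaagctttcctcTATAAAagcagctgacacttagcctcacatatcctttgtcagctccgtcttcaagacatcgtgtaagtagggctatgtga
S100a9 promoter, chr3:90695672-90695971, minus strand: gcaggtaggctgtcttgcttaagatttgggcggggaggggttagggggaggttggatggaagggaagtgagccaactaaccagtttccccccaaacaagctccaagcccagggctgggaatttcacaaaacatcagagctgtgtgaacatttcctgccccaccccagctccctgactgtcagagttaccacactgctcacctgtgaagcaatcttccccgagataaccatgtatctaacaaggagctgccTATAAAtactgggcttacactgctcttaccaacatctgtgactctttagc
TATAAA on the gene's own strand was found in the windows of S100a8, S100a9 and S100a4, among 7 of the 8 genes that had a window in the RefSeq table, and in 8.32% of all 32851 windows. It began 30 bases before the RefSeq start of S100a8, 31 before that of S100a4 and at the RefSeq start base of S100a9. The RefSeq start of S100a8 lies inside the gene span given above, which follows another annotation (GENCODE), as does the distance between start sites. TTGCNNAA, a C/EBP motif, was found on either strand in the window of S100a9 and in 10.8% of all windows. AGGAAG, a PU.1 motif, was found in those of S100a4 and S100a8 (35.4% of all windows), and the motif of GATA factors, AGATAA, in those of S100a9 and S100a11 (11.2%). These are matches of letters and not sites of binding.

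The count of S100a8 was 12285 and 4909 in the wild-type libraries and 170915 and 223158 in the knockout libraries. On the CPM scale this was 277 and 105 against 6653 and 5166, so that the lower knockout library stood far above the higher wild-type library. The difference was 4.95 ± 0.80 on the log2 scale (SE), with a 95% interval of 3.07 to 6.83 and an adjusted p of 0.017. For S100a9 the wild-type libraries held 16646 and 5540 counts and the knockout libraries 195948 and 274468. Its levels were 376 and 119 CPM against 7628 and 6354 CPM, again with no overlap. The log2 fold change of S100a9 was 4.82 ± 0.85 (SE), with a 95% interval of 2.83 to 6.81 and an adjusted p of 0.021. Both genes kept their call in all 13 alternative fits that were planned. Between libraries 1 alone the log2 ratios were 4.58 for S100a8 and 4.34 for S100a9, and between libraries 2 alone 5.62 and 5.74.

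Within a library, the counts of S100a8 and S100a9 stayed in nearly the same proportion. The ratio of S100a8 to S100a9 counts was 0.738 and 0.886 in wild type, against 0.872 and 0.813 in knockout, so both knockout values fell between those of the wild type. The means were 0.812 ± 0.10 and 0.843 ± 0.042 (SD, n = 2 each; two-sided exact permutation p = 1.0, where 2 against 2 libraries cannot give less than 0.333). Together the pair took 0.0732% (95% Wilson interval 0.0724 to 0.0741) and 0.0289% (0.0283 to 0.0294) of all wild-type counts. In the knockout they took 0.956% (0.953 to 0.959) and 1.187% (1.184 to 1.190). These intervals cover counting error only. Per kilobase of exon, S100a9 ranked 79th and 117th of 13499 tested genes in the wild-type libraries and 5th in each knockout library, and S100a8 ranked 128th and 162nd, then 9th in each.

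Markers of neutrophils moved with this pair. Of 20 neutrophil markers tested, none of them an S100 gene, 15 rose and 0 fell by edgeR (0 lower also at an unadjusted p under 0.05 and by DESeq2), with a median log2 fold change of 5.95. Summed over the list, their level was 1477 and 620 CPM in wild type and 19807 and 20796 CPM in knockout, and 0 of the 20 were at 0 counts in every library. Ly6g, the surface antigen of mouse granulocytes, was at 0.97 and 0.84 CPM in wild type and 48.0 and 54.7 CPM in knockout (5.83 on the log2 scale, adjusted p 0.011). Fcnb, which encodes a ficolin (6.52), Itgb2l, an integrin chain (5.84), and Ms4a3, a gene of granulocyte and monocyte precursors (6.84), rose as well. Of the genes on the list that did not pass, Cxcr2, a chemokine receptor, had a log2 fold change of 1.41 (adjusted p 0.065) and Csf3r, the receptor for granulocyte colony-stimulating factor, 0.38 (adjusted p 0.54). The counts of S100a8 and S100a9 together were 0.442 and 0.361 times the summed counts of the 20 markers in wild type and 0.721 and 0.554 times in knockout (two-sided exact permutation p = 0.333). Lyz2 alone made 776 and 230 CPM of the marker sum in wild type and 2282 and 2464 CPM in knockout. It thus weighs more in the wild-type ratios, so the higher knockout ratios do not show that the pair rose more than the other markers. A ratio without Lyz2 was not tested. In bulk spleen, more cells of a type and more RNA per cell cannot be told apart.

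**Figure D2:**
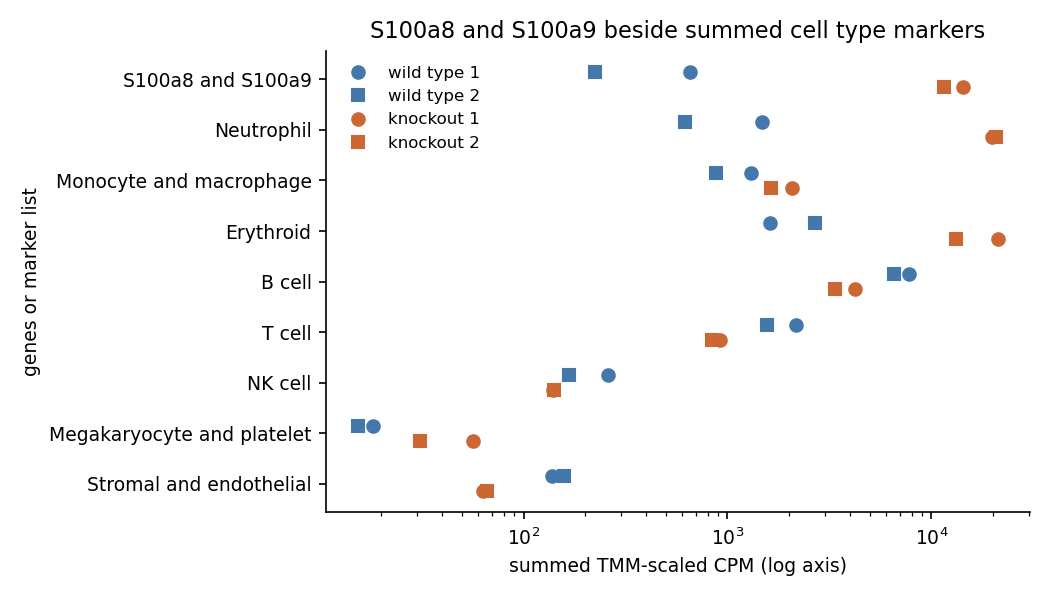
Summed TMM-scaled CPM of S100a8 and S100a9 and of each cell type marker list, on a log axis, with 1 point per library (blue, wild type; orange, knockout). Neutrophil markers stood at 1477 and 620 CPM in wild type and 19807 and 20796 CPM in knockout, and B cell markers at 7726 and 6581 CPM and then 4203 and 3359 CPM.

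Other lists beside the S100 genes differed in direction. By edgeR 5.9% of all tested genes passed as higher and 0.392% as lower. DESeq2 called 1564 as higher and 908 as lower of 14002 genes. Erythroid markers rose in 8 of 14 cases (0 lower, also at an unadjusted p under 0.05 and by DESeq2), with summed levels of 1616 and 2681 CPM in wild type and 21155 and 13170 CPM in knockout. Those with the smallest p were Gata1 (4.31) and Klf1 (4.58), transcription factors of red cell precursors, Epor, the erythropoietin receptor (4.30), and Car1, a carbonic anhydrase (3.76). Of 15 monocyte and macrophage markers, which include cells that also make S100A4, S100A6 and calprotectin, F13a1 rose (log2 fold change 2.53, adjusted p 0.031, or 0.057 without knockout library 2) and the others did not pass. That 1 of 15 lies near the share of all tested genes that passed as higher. The summed level of the 15 was 1308 and 875 CPM in wild type and 2082 and 1635 CPM in knockout, so the groups did not overlap. Of all genes tested singly, 30.3% had both knockout libraries above both wild-type libraries. None of 12 B cell, 13 T cell, 9 NK cell and 6 stromal and endothelial markers tested passed by edgeR. At an unadjusted p under 0.05, 7, 9, 3 and 2 of them were lower, and DESeq2 called 7, 5, 0 and 1. The share of all tested genes at an unadjusted p under 0.05 is not given here. Of 9 platelet genes Gp9 rose (3.50, adjusted p 0.035, or 0.062 without knockout library 1). Summed T cell markers were at 2173 and 1566 CPM in wild type and 923 and 841 CPM in knockout, NK cell markers at 259 and 167 against 139 and 142 CPM, platelet genes at 18.3 and 15.4 against 56.4 and 31.2 CPM, and stromal and endothelial genes at 138 and 158 against 63.0 and 66.3 CPM. Nearly all of this last sum was Pecam1, at 131 and 152 CPM in wild type and 60.0 and 62.9 CPM in knockout. No other tested gene of that list exceeded 2.25 CPM in any library. No listed marker that the table held was at 0 in all 4 libraries. The part of these cell types in the S100 values was not tested.

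S100a1 encodes a protein best known from heart and skeletal muscle, where it binds the calcium release channel. It was the least abundant of the 8, with wild-type counts of 280 and 165 and knockout counts of 893 and 984. Levels were 6.32 and 3.53 CPM against 34.8 and 22.8 CPM, with every knockout value above every wild-type value. The rise was 2.55 ± 0.48 on the log2 scale (SE), with a 95% interval of 1.43 to 3.66 and an adjusted p of 0.025. Its call was lost without knockout library 1 (2.21, adjusted p 0.069). Between libraries 1 alone the log2 ratio was 2.46 and between libraries 2 alone 2.69, the closest agreement between the pairs among the 3 genes that rose.

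S100a1 starts 43 bases from S100a13, on the opposite strand, so that the genes are read away from each other. S100a1 (ENSMUSG00000044080) occupies 90511034 to 90514392 and S100a13 (ENSMUSG00000042312) 90514435 to 90524581 of chromosome 3. The promoter window of S100a1 is shown because its capitals, 204 bases, are also part of the window of S100a13.
S100a1 promoter, chr3:90514281-90514580, minus strand: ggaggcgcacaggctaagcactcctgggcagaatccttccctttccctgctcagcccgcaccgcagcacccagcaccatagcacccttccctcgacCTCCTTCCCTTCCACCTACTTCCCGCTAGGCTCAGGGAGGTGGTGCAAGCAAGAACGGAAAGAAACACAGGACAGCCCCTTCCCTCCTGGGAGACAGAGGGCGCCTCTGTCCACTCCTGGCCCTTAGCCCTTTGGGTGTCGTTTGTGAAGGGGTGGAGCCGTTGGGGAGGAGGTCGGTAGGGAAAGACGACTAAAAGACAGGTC
S100a13, which takes part in the release of growth factors and interleukin-1 alpha that lack a signal peptide, did not share the call of its neighbour. Wild-type libraries held 1781 and 605 of its counts, and knockout libraries 1524 and 1392. Levels of 40.2 and 12.9 CPM against 59.3 and 32.2 CPM overlapped between genotypes, and the log2 fold change was 0.78 with a 95% interval of -0.61 to 2.18 and an adjusted p of 0.41. The ratio of S100a1 to S100a13 counts was 0.157 and 0.273 in wild type, against 0.586 and 0.707 in knockout, so within every knockout library S100a1 took a larger part of the pair (two-sided exact permutation p = 0.333, the smallest that 2 against 2 allows). Between libraries 1 and between libraries 2, which pair the same sex pattern, the log2 ratios of S100a13 were 0.56 and 1.32, and it passed as higher with the library number as a block (0.94, adjusted p 0.0062). That block left 1 residual degree of freedom and passed 22.4% of all tested genes as higher. On library totals alone the log2 fold change of S100a13 was 0.24 (adjusted p 0.83). With 1 library left out it ranged from 0.19 (without wild-type library 2) to 1.81 (without wild-type library 1).

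S100a4 and S100a6 lie next to each other on the plus strand, 9111 bases apart by their starts. S100A4 binds non-muscle myosin and is made by motile cells such as fibroblasts, macrophages and memory T cells, and S100A6, or calcyclin, binds annexins and the calcyclin-binding protein Cacybp. S100a4 was counted 4403 and 1090 times in wild type, against 4293 and 3563 times in knockout, or 99.4 and 23.3 against 167 and 82.5 CPM. Its knockout library 2 lay below wild-type library 1, so the groups overlapped, and the log2 fold change of 1.02 (95% interval -0.59 to 2.64) had an adjusted p of 0.36. Between same-numbered libraries, which share a sex pattern and the trend with transcript length, its log2 ratios were 0.75 and 1.82. With the number as a block it passed (1.28, adjusted p 1.9e-04). The block left 1 residual degree of freedom, and 22.4% of all tested genes passed as higher with it. Gm42674, a gene annotated over part of S100a4 on the same strand, held at most 7 counts in any library. Counts of S100a6 were 3205 and 704 (wild type) and 4319 and 4615 (knockout). Its levels of 72.4 and 15.1 CPM against 168 and 107 CPM did not overlap, yet wild-type libraries differed from each other 4.80-fold. The log2 fold change of S100a6 was 1.65 (95% interval 0.0097 to 3.30) with an adjusted p of 0.18. Its log2 ratios within same-numbered libraries were 1.22 and 2.83, and with the block it passed (2.02, adjusted p 4.6e-09). Leaving out wild-type library 1 gave 3.18 for S100a6 (adjusted p 5.3e-05) and 2.41 for S100a4 (8.6e-04), and leaving out library 2 gave 0.93 (0.17) and 0.33 (0.70). The ratio of S100a4 to S100a6 counts, which needs no scaling, was 1.37 and 1.55 in wild type, against 0.994 and 0.772 in knockout (two-sided exact permutation p = 0.333).

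S100a11 and S100a10 lie 34592 bases apart in a second group on chromosome 3, 2824767 bases beyond S100a9 by their starts. S100A11 binds annexin A1, and S100A10, which has lost the ability to bind calcium, forms a tetramer with annexin A2 at membranes. Counts of S100a11 were 10092 and 4934 (wild type) and 13023 and 18681 (knockout). Its levels were 228 and 106 CPM against 507 and 432 CPM, with no overlap, and its log2 fold change of 1.49 (95% interval 0.31 to 2.68) had an adjusted p of 0.12. Within same-numbered libraries its log2 ratios were 1.15 and 2.03. With the block, which left 1 residual degree of freedom and passed 22.4% of all tested genes as higher, it passed (1.59, adjusted p 1.2e-05). DESeq2 also called S100a11 higher (1.49, adjusted p 0.019), as it did 11.2% of the genes it tested. With 1 library left out its log2 fold change ranged from 1.05 (without wild-type library 2) to 2.14 (without wild-type library 1). A processed pseudogene, S100a11-ps, was not analysed here, and whether reads are shared between them was not tested. S100a10 was counted 8165 and 4258 times in wild type, against 4390 and 5214 times in knockout, or 184 and 91.1 against 171 and 121 CPM. Both knockout values of S100a10 fell between those of the wild type, and the log2 fold change of 0.082 had a 95% interval of -1.0 to 1.16 and an adjusted p of 0.92. Its sign turned to -0.44 with library totals alone as the scale. The ratio of S100a11 to S100a10 counts was 1.24 and 1.16 in wild type, against 2.97 and 3.58 in knockout (two-sided exact permutation p = 0.333).

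**Figure D3:**
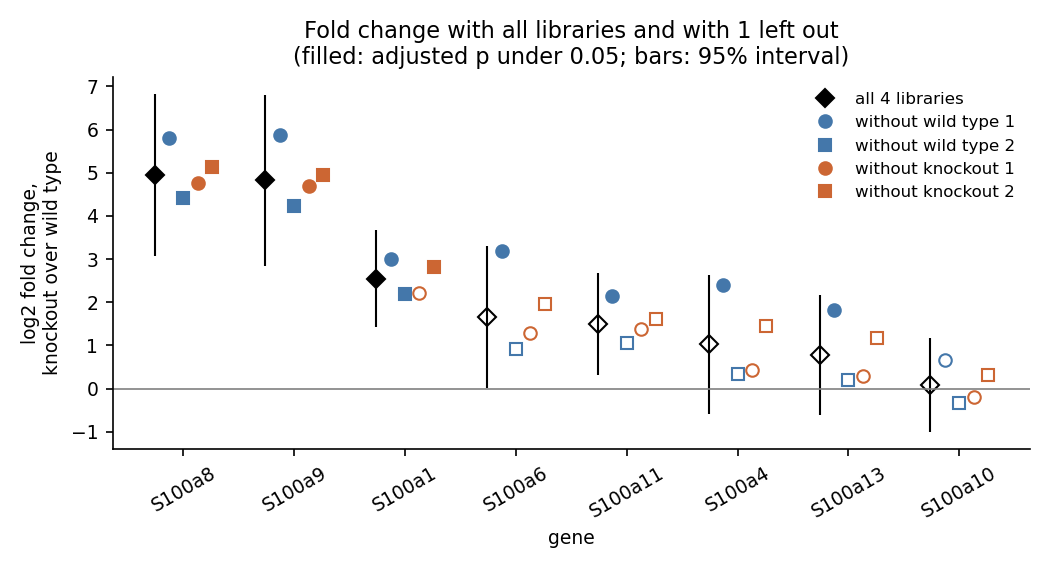
Log2 fold change of knockout over wild type for each S100 gene with all 4 libraries (black diamonds, with 95% intervals) and with 1 library left out (coloured points); filled points had an edgeR adjusted p under 0.05. S100a8 and S100a9 stay at 4.22 or above in all 5 fits, while S100a4 ranges from 0.33 to 2.41.

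All 8 genes were higher in wild-type library 1 than in library 2, by 1.79-fold for S100a1 to 4.80-fold for S100a6, where 50.1% of all tested genes were higher. For 7 of the 8 the difference was at least 2-fold, as it was for 12.4% of all tested genes. Knockout library 1 was also above library 2 for all 8 on the TMM scale, by 1.17-fold for S100a11 to 2.03-fold for S100a4, where 48.6% of all tested genes were higher, and 36.1% were higher in both genotypes. Of the 287 protein-coding genes with transcripts as short as these, 86.8% were higher in library 1 in wild type and 88.9% in knockout. In both genotypes 79.8% were higher, so most genes of like length shared this pattern. On library totals alone the knockout ratios ran from 0.761 to 1.32, above 1 for S100a4, S100a6 and S100a13 and below 1 for the other 5. Summed neutrophil markers were higher in library 1 in wild type (1477 against 620 CPM) and lower in knockout (19807 against 20796 CPM). Monocyte and macrophage, B cell, T cell and platelet lists were higher in library 1 in both genotypes, NK cell markers in wild type (259 against 167 CPM) and not in knockout (139 against 142 CPM). Erythroid markers were lower in library 1 in wild type (1616 against 2681 CPM) and higher in knockout (21155 against 13170 CPM), and stromal and endothelial genes were lower in both.

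Read per kilobase of exon, which allows genes to be compared within a library, the order in wild type was S100a9 (474 ± 348 CPM per kb), S100a11 (326 ± 169), S100a8 (275 ± 176), S100a10 (114 ± 54.4), S100a4 (105 ± 92.1), S100a13 (37.2 ± 27.0), S100a6 (32.0 ± 29.6) and S100a1 (7.10 ± 2.84). The ranges of all adjacent genes in this order overlapped except those of S100a6 and S100a1. Within libraries the order was the same in both save for S100a10 and S100a4, which changed places. In the knockout the order began with S100a9 (13393 ± 1726), S100a8 (8516 ± 1515), S100a11 (919 ± 103) and S100a4 (214 ± 102), each with values apart from the next. For S100a4 this was by a very small margin, 141.2 in knockout library 2 against 141.0 for S100a10 in knockout library 1. The order went on with S100a10 (120 ± 29.3), S100a6 (101 ± 31.7), S100a13 (64.0 ± 26.8) and S100a1 (41.5 ± 12.2), whose ranges overlapped from one to the next. With the longest transcript as the length, S100a8 stood above S100a11 and S100a6 above S100a13 in wild type, and the order of the knockout means was unchanged. On that length S100a10 (176) stood above S100a4 (166) in knockout library 2, and the ranges of S100a9 and S100a8 overlapped.

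S100a8 and S100a9 took 55.8% and 51.5% of the summed level per kilobase of the 8 genes in the wild-type libraries and 93.5% and 94.0% in the knockout libraries (two-sided exact permutation p = 0.333). The share of S100a11 went from 22.2% and 28.1% to 3.83% and 4.06%. That of S100a10 went from 7.58% and 10.2% to 0.545% and 0.477%. Neither gene's own level passed as lower, and in CPM both knockout values of S100a11 lay above both wild-type values. Shares of the 2 libraries of a genotype lay closer to each other than to those of the other genotype for the pair, S100a11 and S100a10.

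**Figure D4:**
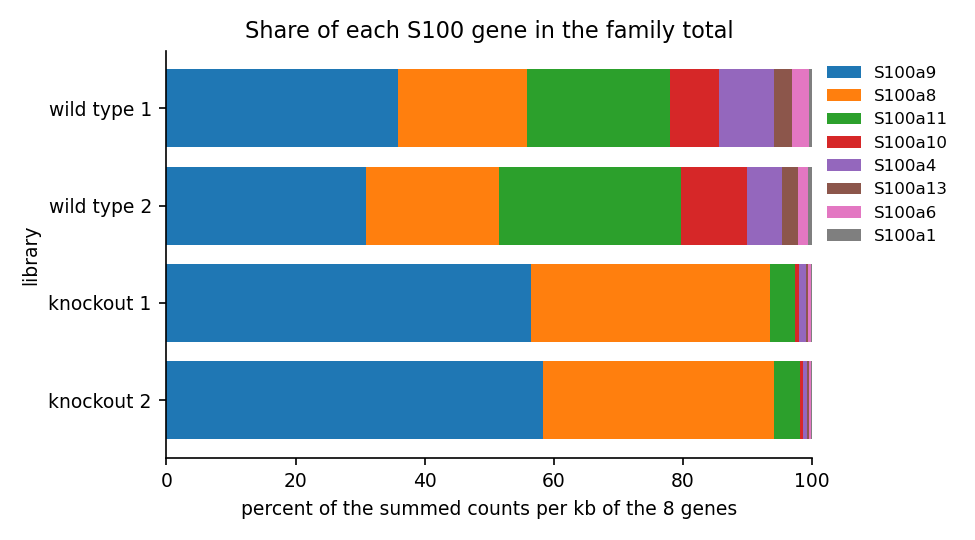
Percent of the summed counts per kilobase of exon taken by each of the 8 S100 genes, 1 bar per library. S100a8 and S100a9 together fill 55.8% and 51.5% of the wild-type bars and 93.5% and 94.0% of the knockout bars.

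Another 9 S100 genes were in the table, and 0 passed the filter on low counts. S100a2 was at 0 in all 4 libraries, which allows up to 0.12 CPM in knockout library 1, where the scaled depth was lowest. The highest count among them was 15, reached in knockout library 2 by S100a3 and by S100a7a, the mouse relative of psoriasin. S100a5, S100a14, S100a16, S100b, S100g and S100z held at most 7 counts in any library. S100a7a had 0 and 1 counts in wild type, against 5 and 15 in knockout. These 9 genes were not tested between genotypes.

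Genes whose products bind or receive S100 proteins were taken from the lists, where 6.29% of all tested genes passed in either direction. Among 13 annexins and other binding partners, Anxa1 and Anxa3 rose and 0 fell (by DESeq2 1 was lower, and 1 had a lower value at an unadjusted p under 0.05), with a median log2 fold change of 0.31. Anxa1, the partner of S100A11 and an inhibitor of neutrophil entry into tissue, was at 25.5 and 21.0 CPM in wild type and 303 and 398 CPM in knockout (3.91 ± 0.44 on the log2 scale, adjusted p 0.011). Anxa3, an annexin of neutrophil granules, was at 6.07 and 4.92 against 25.8 and 36.3 CPM (2.5, adjusted p 0.017). Anxa2, which S100A10 binds, was at 107 and 36.9 against 222 and 188 CPM (1.52, adjusted p 0.13), so its groups did not overlap where those of S100a10 did. Myh9, a myosin partner of S100A4, had a log2 fold change of -1.17 (adjusted p 0.21), and Cacybp 0.80 (adjusted p 0.20).

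Of 11 receptors and adaptors of S100A8 and S100A9, Bsg rose and 0 fell by edgeR (0 lower also at an unadjusted p under 0.05 and by DESeq2). Bsg encodes basigin, a surface glycoprotein that binds S100A9 and is also abundant on red cell precursors. It was at 187 and 123 CPM in wild type and 1776 and 812 CPM in knockout (3.07 ± 0.62, adjusted p 0.031, or 0.092 without knockout library 1). Tlr4 (-0.61, adjusted p 0.48), its partner Ly96 (-0.37, 0.62), the co-receptor Cd14 (0.71, 0.29) and Ager, the receptor RAGE (0.16, 0.84), did not pass. Among 10 myeloid transcription factors tested, Cebpe rose, from 5.37 and 0.90 CPM to 72.7 and 59.7 CPM (4.40 ± 0.82, adjusted p 0.025), and 0 fell by edgeR or DESeq2 (2 lower at an unadjusted p under 0.05). C/EBP epsilon drives the late granule program of neutrophils. Cebpa (1.16, adjusted p 0.25), Cebpb (0.94, 0.37) and Spi1, which encodes PU.1 (0.71, 0.36), did not pass.

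The 8 S100 genes all lie on chromosome 3, so the genes around them were examined. Of 17 other genes tested that start between S100a1 and S100a10 or within 500 kb of that stretch, 0 passed by edgeR. Of all tested genes 6.29% passed in either direction, so with this few genes 0 lies near that share. At an unadjusted p under 0.05, 3 of the 17 were higher and 1 lower, and DESeq2 called 1 in each direction. The share of all tested genes at that unadjusted threshold is not given, so these counts cannot be set against it. Over all genes DESeq2 called 1564 as higher and 908 as lower of 14002. The median log2 fold change of the 17 genes was -0.27. Single values ran from -1.32 for Dennd4b (adjusted p 0.086) to 1.81 for Rab13 (adjusted p 0.14). Gm9774, which starts between S100a9 and S100a11, was at 3.28 and 9.71 CPM as means of wild type and knockout (1.57, adjusted p 0.073). Chtop, the nearest tested gene on the S100a1 side, was at 111 and 105 CPM as means of wild type and knockout (-0.074, adjusted p 0.91), and Snapin at 29.7 and 24.6 CPM (-0.27, adjusted p 0.65).

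**Figure D5:**
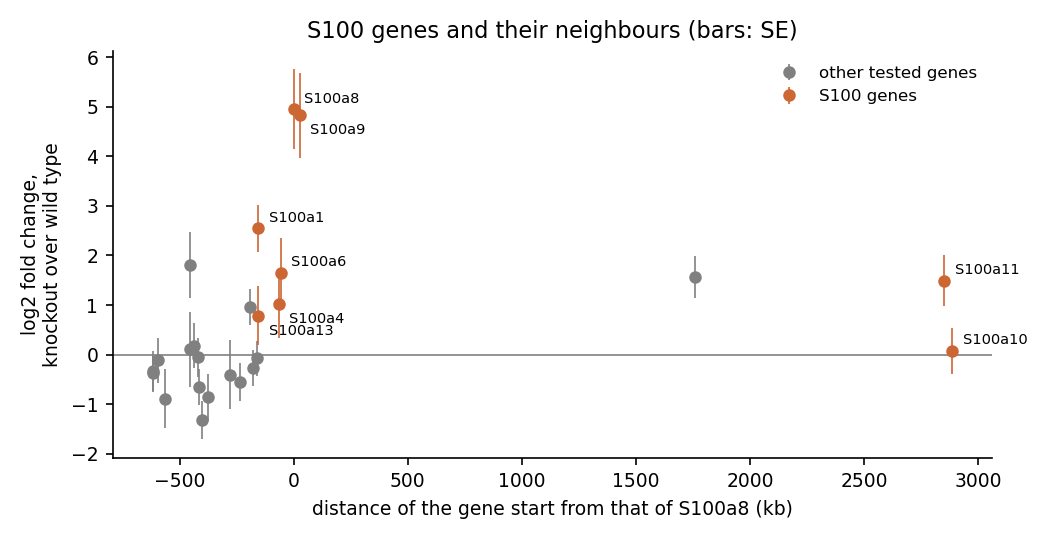
Log2 fold change of knockout over wild type with its SE against the distance of each gene's start from that of S100a8, for the S100 genes (orange) and other tested genes in that stretch or within 500 kb of it (grey). S100a8 and S100a9 stand at 4.95 and 4.82, and the median of the 17 other genes is -0.27.

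Each S100 gene was also set beside the genes with the most similar pattern over the 4 libraries, by the root mean square difference of centred log2 CPM among 10638 genes. S100a8 and S100a9 differed from each other by 0.104, the smallest value of the 28 pairs among the 8. Wfdc21 was the closest other gene to both, at 0.124 and 0.150, with 5.82 and 2.05 CPM in wild type and 150 and 128 CPM in knockout. Chil3, a chitinase-like protein of neutrophils and macrophages, followed for S100a8 (0.249) and Prss57, a serine protease of neutrophil granules, for S100a9 (0.275). S100a1 was closest to Rfc4, a subunit of the clamp loader of DNA replication (0.042), and to Pqlc1 (0.065). S100a6 was closest to Retnlg, a resistin-like gene of mature neutrophils (0.132), and Vill (0.164), and S100a4 to Uqcc2 (0.078) and Lst1 (0.091). S100a10 was closest to Narfl (0.015) and Gpatch3 (0.020), S100a11 to Lyrm4 (0.041) and Ms4a6d (0.052), and S100a13 to Zswim7 (0.041) and Fmc1 (0.048). With 4 libraries many genes have close patterns, so these values describe likeness and carry no test.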

How the data were processed

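The authors deposited a table with 1 expected count (estimated count) per Ensembl gene and library, made from stranded 75 bp single-end reads of ribosome-depleted RNA, per the labels' protocols. For these values the submitters' processing notes list GRCm38 with RSEM (1.2.25), STAR (2.5.0) and SAMtools (1.18), in no order. Which annotation and strand setting they used is not given here. The values were whole numbers, so rounding changed 0 of them. The 92 spike-in rows held 0 counts and were left out.

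Identifiers were matched to GENCODE M21 on GRCm38 (25251 of 25509). Genotypes were compared with edgeR 4.0.16 in R 4.3.3 (TMM, filterByExpr, robust quasi-likelihood F test, Benjamini-Hochberg over 13532 genes, 2 residual degrees of freedom). That test was also run on counts simulated with the common dispersion (0.1447) and no difference by library number, sex or transcript length. The test was thus not checked under such differences. The SE is the log2 fold change over the root of F. Alternatives used DESeq2 1.42.0, limma-voom 3.58.1, other scalings, filters and dispersion, a replicate block, and each library left out. Levels per kb divide CPM by the union of exons. If libraries of a genotype were not separate mice, p-values measure only the spread between these samples.

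The S100 genes and the lists were chosen with earlier results of these data known. Besides the S100 genes, those named are list members that passed (at most 4 per list) and the 2 most similar genes for each S100 gene, with an average log2 CPM of at least 1. Cxcr2, Csf3r, Lyz2, Pecam1, S100pbp and Trim21 were named outside this rule, after their values were seen. So were the partners and receptors or factors that did not pass, and the neighbours Chtop, Snapin, Dennd4b, Rab13 and Gm9774.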

Additional observations from a re-analysis of the deposited data

How the results depend on the processing

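S100a8 and S100a9 kept direction and call in 13 of 13 planned fits, at 4.41 to 5.80 and 4.22 to 5.87 on the log2 scale, and S100a1 in 12 of 13. The number of S100 genes that rose was 3 with all libraries, 5 by DESeq2 (S100a6 and S100a11 added) and 7 with the replicate block, and it ranged from 2 to 7 with 1 library left out. At an adjusted p under 0.01 edgeR called 0 S100 genes and 0 of all genes in either direction (5 S100 genes had an unadjusted p under 0.05). Calls over all genes, 798 higher and 53 lower, became 1564 and 908 under the DESeq2 Wald test, 1278 and 490 when no genes were filtered, and 3036 and 2669 with the replicate block. They ranged from 601 to 2300 and from 30 to 2047 with 1 library left out. Scaling by totals alone called 782 as higher and 1376 as lower, and it moved the median over all genes from -0.056 to -0.56 (log2). S100a10 ranged from -0.34 to 0.67 with 1 library left out, Narfl from -0.32 to 0.70 and Gpatch3 from -0.31 to 0.71. S100a10 changed sign with library totals alone (-0.44), without wild-type library 2 (-0.34), without knockout library 1 (-0.19) and between libraries 1 alone (-0.11, a comparison added after the data were seen). Narfl (-0.42, -0.32, -0.19) and Gpatch3 (-0.41, -0.31, -0.16) did so in the first 3 of these. Beside S100a1, Bsg, Rfc4, Pqlc1 and Gp9 lost their call without knockout library 1 (adjusted p 0.092, 0.077, 0.081 and 0.062) and F13a1 without knockout library 2. As a share of plain counts, S100a8 and S100a9 took 49.0% of the S100 total in wild type and 93.2% in knockout, against 53.7% and 93.8% per kilobase. In these lists the rises moved over all planned fits from 1 to between 0 and 3 for receptors, from 2 to between 2 and 4 for partners, from 1 to between 1 and 6 for myeloid factors, from 1 to between 0 and 6 for monocyte and macrophage markers, from 1 to between 0 and 4 for platelet genes and from 8 to between 7 and 14 for erythroid markers. The falls moved from 0 to at most 1, 3 and 2 for receptors, partners and myeloid factors, and to at most 9, 11, 5 and 2 for B cell, T cell, NK cell and stromal markers. The cause of these changes was not tested.

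Labels give both genotypes replicate numbers 1 and 2 without saying that a number marks shared animals or days, but same-numbered libraries shared a sex pattern and deviated together (correlation 0.457). With the number as a replicate block, 1 residual degree of freedom remained and S100a10 alone did not pass (0.15, adjusted p 0.73). With 1 library left out, the lone library of a genotype was assumed to vary like the other pair.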

Other observations

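S100pbp, which encodes a nuclear protein that binds S100P and is no S100 gene itself, had lower values in the knockout. It was at 28.2 and 47.3 CPM in wild type and 14.6 and 20.7 CPM in knockout, a log2 fold change of -1.10 with an adjusted p of 0.16 by edgeR. Its wild-type library 2 was the higher of the pair, opposite to all 8 S100 genes. Cd36, a scavenger receptor that binds S100A8 and S100A9 with fatty acids, was at 21.0 and 53.1 CPM in wild type and 110 and 83.0 CPM in knockout (1.38, adjusted p 0.14). Ahnak, a very large scaffold protein that binds the complex of S100A10 and annexin A2, was at 111 and 328 CPM against 33.8 and 79.3 CPM (-1.96, adjusted p 0.11).

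Over 12959 tested protein-coding genes other than the 8, the length of the longest transcript had a Spearman correlation of -0.587 with the log2 ratio of wild-type library 1 to 2, of -0.533 with that of knockout library 1 to 2 and of -0.389 with the log2 fold change between genotypes (0.1 CPM was added before the library ratios). These correlations run across genes, which are not independent replicates, and the points share libraries and scaling. Among the 287 short genes the log2 fold change had quartiles of 0.42 and 1.85, a range that holds the values of S100a4, S100a6, S100a11 and S100a13, while S100a10 lay below it and S100a1, S100a8 and S100a9 above. Of the short genes 8.71% rose, against 5.89% of the longer ones. The part of length in the S100 values was not tested.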
